A study of Mus musculus with 6 samples.

Results

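The tubulin genes of TM4 cells, an established mouse line of Sertoli cells, were compared between cells after long exposure to aluminium chloride (AlCl3) and control cells. The set comprised 10 of the 24354 genes of the expression table, chosen by name after Ensembl identifiers had been matched to GENCODE mouse M21 symbols. It held 3 alpha-tubulin genes (Tuba1a, Tuba1b and Tuba1c), 6 beta-tubulin genes (Tubb2a, Tubb2b, Tubb3, Tubb4b, Tubb5 and Tubb6) and 1 gamma-tubulin gene (Tubg1). RNA-seq libraries came from 3 samples of TM4 cells kept in 100 nM AlCl3 for 30 days and 3 control samples, also taken at day 30. Cells of both groups were grown in DMEM-F12 with fetal bovine serum, and no agent other than AlCl3 is named in the labels. Whether replicates were separate cultures is not stated in the labels, and the p-values below rest on a spread between libraries that could be purely technical. Retinas are named in the RNA extraction protocol of every sample, although the remaining labels give TM4 and Sertoli cells.

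Alpha- and beta-tubulin form the heterodimer that polymerises into microtubules, and gamma-tubulin sits at the minus end in a ring-shaped complex that starts a new microtubule. In Sertoli cells, the somatic cells that surround developing germ cells, microtubules run along the length of the cell, shape it and carry vesicles and spermatids. Cells also adjust tubulin mRNA to the amount of free tubulin dimer: the factor TTC5 recognises the first residues of a nascent alpha- or beta-tubulin chain and, through SCAPER and the CCR4-NOT deadenylase, brings about decay of the mRNA being translated.

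The coding starts of representative members are shown because they encode those first residues. The sequences were read from GENCODE M21 transcripts (GRCm38). Each run gives the first 24 coding bases, and capitals mark the first 12.
Tuba1b: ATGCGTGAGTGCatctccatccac
Tubb5: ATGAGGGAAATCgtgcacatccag
Tubb4b: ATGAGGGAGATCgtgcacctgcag
Tubb2a: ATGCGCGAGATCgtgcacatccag
Tubg1: ATGCCGAGAGAAatcatcacccta
The first 12 bases were the same in all 3 alpha-tubulin genes and encode methionine, arginine, glutamate and cysteine. Tubb3 and Tubb4b shared the same first 12 bases, and those of Tubb5 and Tubb2a differed from them. Beta-tubulins are known to start with methionine, arginine, glutamate and isoleucine, the other stretch that TTC5 reads. Gamma-tubulin is not a known substrate of this control, and the first 12 bases of Tubg1 occurred in none of the members compared. Tubb6 was not part of this comparison.

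Promoters of 3 beta-tubulin genes are shown because their mRNA levels and differences lay far apart: Tubb5 was the most abundant member, Tubb4b had the largest difference among the beta-tubulins, and Tubb2a had a small one. Each run is the 250 bases before the RefSeq start in GRCm38.p6, 5′ to 3′ on the strand of the gene. The regions are chr2:25224703-25224952 on the minus strand for Tubb4b, chr17:35838302-35838551 on the minus strand for Tubb5 and chr13:34078009-34078258 on the minus strand for Tubb2a. Capitals mark exact matches on either strand to the CCAAT box (CCAAT), the GC box (GGGCGG), the TATA box (TATAAA), the E-box (CACGTG) and the cyclic AMP response element (TGACGTCA), and a match on the other strand reads as the reverse complement. No match overlapped another.
Tubb4b: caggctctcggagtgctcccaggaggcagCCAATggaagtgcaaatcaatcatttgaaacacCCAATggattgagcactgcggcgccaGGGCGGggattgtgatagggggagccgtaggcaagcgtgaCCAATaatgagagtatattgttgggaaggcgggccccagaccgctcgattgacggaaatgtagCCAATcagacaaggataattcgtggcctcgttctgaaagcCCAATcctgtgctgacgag
Tubb5: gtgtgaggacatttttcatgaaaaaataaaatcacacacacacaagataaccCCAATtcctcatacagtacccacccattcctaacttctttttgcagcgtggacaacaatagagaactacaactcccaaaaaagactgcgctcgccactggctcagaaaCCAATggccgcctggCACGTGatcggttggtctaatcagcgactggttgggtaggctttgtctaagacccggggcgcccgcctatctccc
Tubb2a: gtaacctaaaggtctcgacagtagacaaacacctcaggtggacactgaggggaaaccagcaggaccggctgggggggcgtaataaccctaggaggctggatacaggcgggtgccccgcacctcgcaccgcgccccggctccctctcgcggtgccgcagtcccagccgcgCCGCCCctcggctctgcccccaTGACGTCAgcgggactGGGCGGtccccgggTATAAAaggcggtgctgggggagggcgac
The Tubb4b stretch held 5 CCAAT boxes and 1 GC box. The Tubb5 stretch held 2 CCAAT boxes and 1 E-box, and the Tubb2a stretch held 2 GC boxes with 1 TATA box and 1 cyclic AMP response element. Promoters were found for 7 of the 10 members, and not for Tubb2b, Tubb6 and Tubg1. The CCAAT box occurred in 5 of these 7 members and in 34.5% of 27025 mouse promoters of the same length. The GC box occurred in 5 of 7 members and in 32.9% of all promoters. The other motifs each occurred in 1 of 7 members: the TATA box in 13.0% of all promoters, the E-box in 6.05% and the cyclic AMP response element in 1.62%. These matches describe letters in a window and say nothing of binding.

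The alpha-tubulin members lie together on chromosome 15 of GRCm38, with Tuba1b at chr15:98931425-98934565, Tuba1a at chr15:98949837-98953703 and Tuba1c at chr15:99029891-99038110. Tubb2a (chr13:34074274-34078007) and Tubb2b (chr13:34126748-34130466) lie close to each other on chromosome 13. Tubb4b lies at chr2:25222160-25224702, Tubb3 at chr8:123411424-123422015, Tubb5 at chr17:35833921-35838306 and Tubb6 at chr18:67390717-67402749. Tubg1 lies at chr11:101119938-101126419, close to the second gamma-tubulin gene Tubg2 at chr11:101155907-101161787.

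Levels are given in FPKM, the authors' unit, in which reads (or fragments) of a gene are divided by its length and by the size of the library, so that genes can be compared per length. Reads in genes, recovered from the steps of the low FPKM values, numbered between 13381191 and 17339432 in the AlCl3 libraries and between 16364830 and 17114582 in the control libraries. A member had between 459 and 36859 reads in a library. Libraries correlated across genes at r = 0.978 to 0.993 within groups and at r = 0.874 to 0.904 between groups. Differences were tested with limma on log2(FPKM + 1) over 11202 genes with a mean of at least 1 FPKM. The p-values were adjusted by Benjamini-Hochberg over all of these genes and called at 0.05, and each log2 difference is AlCl3 minus control with its standard error (SE). With 3 libraries in each group, the smallest two-sided p of an exact permutation test is 0.1, so none was used.

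Nearly all alpha- and beta-tubulin members were higher after AlCl3, while the gamma-tubulin member was lower. All 10 members passed the filter. Of these, 8 rose, Tubg1 fell and Tubb2b did not pass the test. The background was a broad one, since 61.3% of all genes tested were called, 31.2% higher and 30.2% lower. The median log2 difference was 0.81 over the members and 0.03 over all genes tested. The libraries of the 2 groups did not overlap for 9 of 10 members, which was also so for 66.1% of all genes tested. In bulk RNA, fewer cells that express a gene and less of its RNA per cell cannot be told apart.

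**Figure D1:**
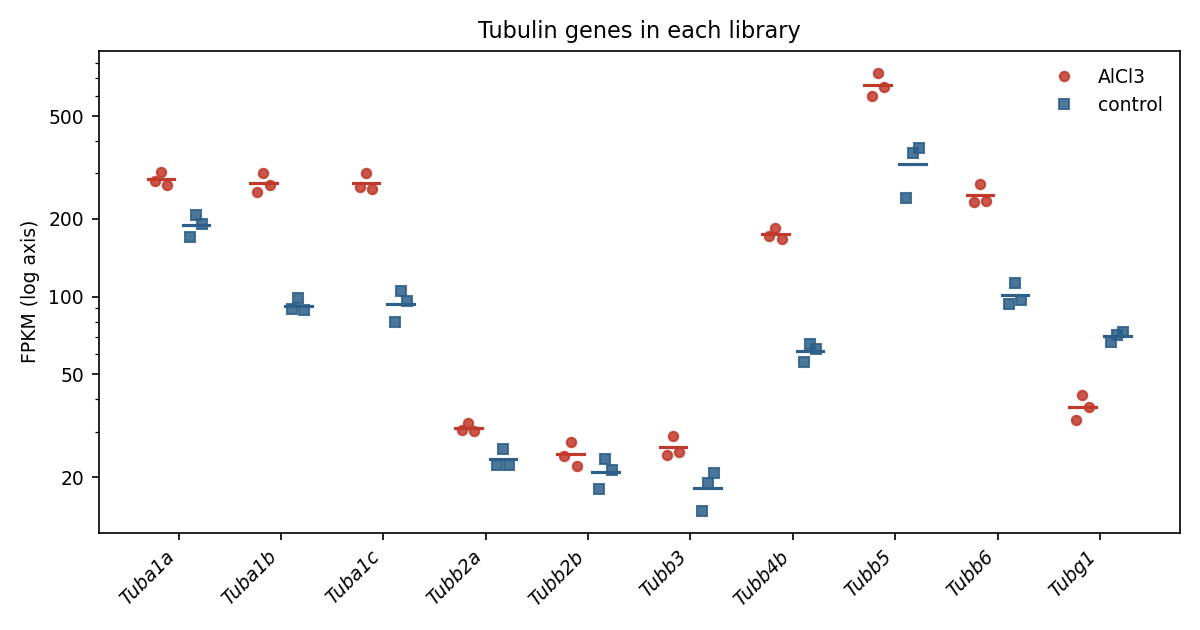
FPKM of the 10 tubulin genes in each library on a log axis, with AlCl3 libraries as red circles, control libraries as blue squares and a bar at the mean of each group. Tubg1 is the member whose AlCl3 libraries all sit below its control libraries, Tubb2b is the member whose groups overlap, and the other 8 have every AlCl3 library above every control library.

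Among the alpha-tubulin genes, all 3 rose, and the log2 differences of Tuba1b and Tuba1c were larger than that of Tuba1a, a contrast between genes that was not tested. Tuba1b, a widely expressed isotype of dividing cells, was measured at 255.1, 300.6 and 270.5 FPKM in the AlCl3 libraries, against 89.2, 98.4 and 89.1 FPKM in the control libraries. The groups were far apart relative to the spread within each. The ratio of the means was 2.99, with a log2 difference of 1.57 (SE 0.13) and a limma adjusted p of 1.12e-05. Tuba1c, whose product differs from that of Tuba1b in few residues, was at 266.3, 301.3 and 259.9 FPKM in AlCl3 libraries, against 79.96, 105.5 and 96.0 FPKM in control libraries. Its lowest AlCl3 library was still well above its highest control library. The log2 difference was 1.55 (SE 0.14, limma adjusted p = 2.31e-05). Tuba1a, the main alpha-tubulin of developing neurons, was at 280.0, 303.7 and 271.0 FPKM in AlCl3 libraries, against 170.0, 207.0 and 190.4 FPKM in control libraries. The groups did not overlap, but the gap between them was narrower than for the other alpha-tubulin genes. Its log2 difference was 0.59 (SE 0.14, limma adjusted p = 0.00429).

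These 3 genes share long stretches of sequence, so the division of reads between them is uncertain. Of all stretches of 100 bases in the principal transcript, 73.0% in Tuba1b, 65.9% in Tuba1a and 53.4% in Tuba1c also occurred in another gene. Tuba1b and Tuba1c alone shared 799 such stretches. Processed pseudogenes with tubulin sequence also had more reads in AlCl3 libraries: Gm3756 had 1613 reads in the 3 AlCl3 libraries and 609 in the 3 control libraries, and Gm14150 had 805 reads in AlCl3 and 249 in control libraries. The same held for Gm3226, with 307 reads in AlCl3 and 131 in control libraries, Tubb4b-ps1, with 248 in AlCl3 and 88 in control libraries, and Gm5620, with 241 in AlCl3 and 79 in control libraries. Apart from Gm3756, these pseudogenes stood out in AlCl3 2 among the AlCl3 libraries. Across AlCl3 1, 2 and 3, Gm14150 was at 9.52, 19.8 and 9.17 FPKM and Gm3226 at 3.13, 7.95 and 3.82 FPKM. Gm3756 was level, at 24.3, 25.3 and 24.4 FPKM. Exons of Tuba1a and Tuba1b also overlap those of the annotated gene Gm49450 on the same strand, over 473 and 426 bases, and that gene was not analysed here. The handling of reads that match several genes in the authors' counting is not stated in the labels. The sum of the alpha-tubulin members was 836 ± 60.1 FPKM in AlCl3 libraries and 375 ± 35.9 FPKM in control libraries (SD, n = 3 each), a ratio of 2.23.

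Among the beta-tubulin genes, the log2 differences of Tubb4b, Tubb6 and Tubb5 were larger than those of Tubb3, Tubb2a and Tubb2b, a contrast between genes that was not tested. Tubb4b, a widely expressed isotype also used in cilia, was at 171.0, 184.2 and 167.3 FPKM in AlCl3 libraries, against 55.7, 65.7 and 62.8 FPKM in control libraries. Values within a group lay close together and the groups far apart. The ratio of the means was 2.84 and the log2 difference 1.49 (SE 0.12, limma adjusted p = 1.16e-05). Tubb6, a beta-tubulin of broad expression, was at 232.7, 273.8 and 234.4 FPKM in AlCl3 libraries, against 93.8, 112.6 and 96.6 FPKM in control libraries. The groups did not overlap. The log2 difference of Tubb6 was 1.28 (SE 0.14, limma adjusted p = 4.73e-05).

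Tubb5, the major beta-tubulin of most dividing cells and the most abundant member here, was at 598.0, 736.3 and 645.5 FPKM in AlCl3 libraries, against 241.8, 360.1 and 375.5 FPKM in control libraries. Its control libraries spread more widely than those of the other members, with control 1 far below the others, yet every AlCl3 library was higher than every control library. The ratio of the means was 2.03 and the log2 difference 1.04 (SE 0.20, limma adjusted p = 0.00148). Tubb5, Tubb6 and Tubb3 shared no stretch of 100 bases of the principal transcript with another annotated gene. Tubb3 lies inside an intron of the annotated gene Gm20388 on the same strand, and 0 bases of its exons overlap exons of that gene.

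Tubb3, the isotype used as a neuronal marker and also found in Sertoli cells, was at 24.4, 28.7 and 25.01 FPKM in AlCl3 libraries, against 14.8, 18.9 and 20.6 FPKM in control libraries. The groups came close without overlapping, and the log2 difference was 0.51 (SE 0.14, limma adjusted p = 0.0120). Tubb2a, like Tubb2b most abundant in the nervous system, was at 30.4, 32.4 and 30.3 FPKM in AlCl3 libraries, against 22.3, 25.7 and 22.2 FPKM in control libraries. All 3 AlCl3 values exceeded the control values, with a log2 difference of 0.39 (SE 0.11, limma adjusted p = 0.0130). Tubb2b was at 24.2, 27.3 and 22.02 FPKM in AlCl3 libraries, against 17.96, 23.5 and 21.4 FPKM in control libraries. Here the groups overlapped, and the log2 difference of 0.22 (SE 0.14, limma adjusted p = 0.190) was within the spread between replicates. Tubb2a and Tubb2b share 543 stretches of 100 bases, 35.9% of those of Tubb2a and 26.1% of those of Tubb2b, so reads may have been divided between them.

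Summed over the 6 beta-tubulin members, the level was 1163 ± 106 FPKM in AlCl3 libraries and 551 ± 90.4 FPKM in control libraries (SD, n = 3 each), a ratio of 2.11. The beta-tubulin sum divided by the alpha-tubulin sum was 1.39 ± 0.0360 in AlCl3 libraries and 1.46 ± 0.140 in control libraries, and the groups overlapped, with libraries at 1.35, 1.42 and 1.40 after AlCl3 against 1.32, 1.48 and 1.596 in control. When a trend on GC content and length was removed within each library, the log2 difference became 0.98 for Tubb3 and 0.65 for Tubb2a, and both calls held. On that scale Tubb3 stood close to Tubb5, which was at 1.07.

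**Figure D2:**
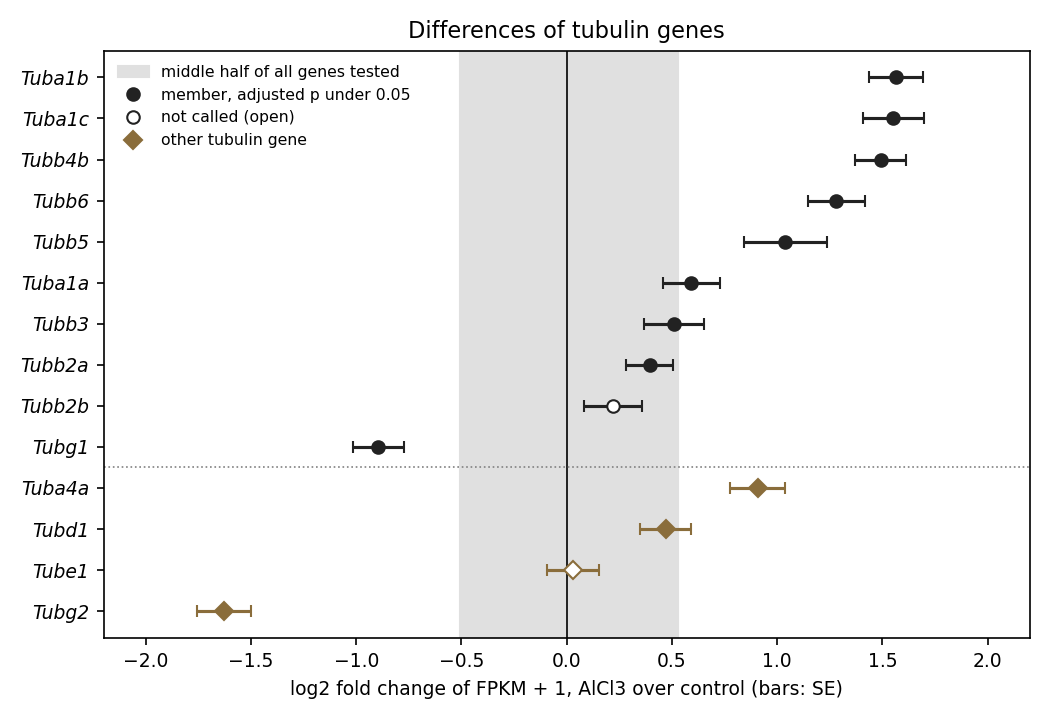
Log2 difference of FPKM + 1, AlCl3 minus control, for the 10 members above the dotted line and the 4 other tubulin genes tested below it. Bars are the SE, filled symbols passed an adjusted p of 0.05, open symbols did not, and the grey band spans the middle 50% of all genes tested. Tuba1b, at 1.57, stands highest and Tubg1, at -0.89, is the one member below 0.

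The gamma-tubulin genes moved against the alpha- and beta-tubulin members that passed the test. Outside the members, Tubb4a and Tuba8, which were below the filter and are given later, also had fewer reads after AlCl3. Tubg1, the gamma-tubulin of most dividing cells, was at 33.4, 41.7 and 37.3 FPKM in AlCl3 libraries, against 66.7, 71.1 and 72.9 FPKM in control libraries. Every AlCl3 library was far below every control library. The ratio of the means was 0.533 and the log2 difference -0.89 (SE 0.12, limma adjusted p = 2.06e-04). With a trend on GC content and length removed, Tubg1 had a smaller log2 difference of -0.47 and still passed the test (limma adjusted p = 9.97e-04). Relative to each 1000 FPKM of alpha- and beta-tubulin, Tubg1 stood at 18.7 ± 0.859 FPKM in AlCl3 libraries and at 76.5 ± 7.68 FPKM in control libraries (SD, n = 3 each).

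Tubg2, the second gamma-tubulin gene and the one enriched in brain, had 24, 23 and 17 reads in the AlCl3 libraries, against 122, 131 and 145 reads in the control libraries. Its level was 0.769 ± 0.200 FPKM in AlCl3 libraries and 4.45 ± 0.283 FPKM in control libraries, with a log2 difference of -1.63 (SE 0.13, limma adjusted p = 9.88e-06). The size of that difference depended on the scale, from -0.71 with a pseudocount of 5 FPKM to -2.56 with voom on recovered reads. Tubg2 was under 1 FPKM in every AlCl3 library and passed the filter only through its control libraries. With no filter it was also called (limma adjusted p = 4.63e-04). Tubg1 and Tubg2 shared 70 stretches of 100 bases, 4.11% of those of Tubg1.

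The order of the levels changed little at the top and more in the middle. In AlCl3 libraries Tubb5 was highest, followed by Tuba1a, Tuba1c, Tuba1b and Tubb6, which overlapped from one to the next, then Tubb4b, Tubg1 and Tubb2a, each apart from its neighbours, and last Tubb3 and Tubb2b, which overlapped. In control libraries Tubb5 and Tuba1a were highest and apart from each other, followed by Tubb6, Tuba1c and Tuba1b, which overlapped, then Tubg1 above Tubb4b without overlap, and last Tubb2a, Tubb2b and Tubb3, each overlapping the next. Tuba1a therefore stood clear of the other alpha-tubulin genes in control libraries and level with them in AlCl3 libraries, and Tubg1 stood below Tubb4b in AlCl3 libraries and above it in control libraries.

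Within the alpha-tubulin sum, Tuba1a made up 34.1 ± 0.747% in AlCl3 libraries and 50.4 ± 0.294% in control libraries (SD, n = 3 each). Tuba1b made up 32.9 ± 0.993% in AlCl3 libraries and 24.7 ± 1.43% in control libraries, and Tuba1c 32.98 ± 0.472% in AlCl3 libraries and 24.9 ± 1.19% in control libraries. The groups did not overlap for any of these 3 shares, and the spread within a group was small beside the gap. Adding the tubulin pseudogenes to the sums put the Tuba1a share at 34.99% in AlCl3 libraries and 50.5% in control libraries. Within the beta-tubulin sum, Tubb5 held 56.7 ± 1.19% in AlCl3 libraries and 58.7 ± 4.28% in control libraries, with overlap between the groups. Tubb6 held 21.2 ± 0.352% in AlCl3 libraries and 18.6 ± 2.45% in control libraries, also with overlap. Tubb4b held 15.0 ± 0.745% in AlCl3 libraries and 11.3 ± 1.06% in control libraries, without overlap. The nervous-system isotypes held smaller shares after AlCl3: Tubb2a 2.68% in AlCl3 and 4.31% in control libraries, Tubb2b 2.11% in AlCl3 and 3.82% in control libraries, and Tubb3 2.24% in AlCl3 and 3.29% in control libraries. Shares are descriptions of chosen members and were not tested.

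**Figure D3:**
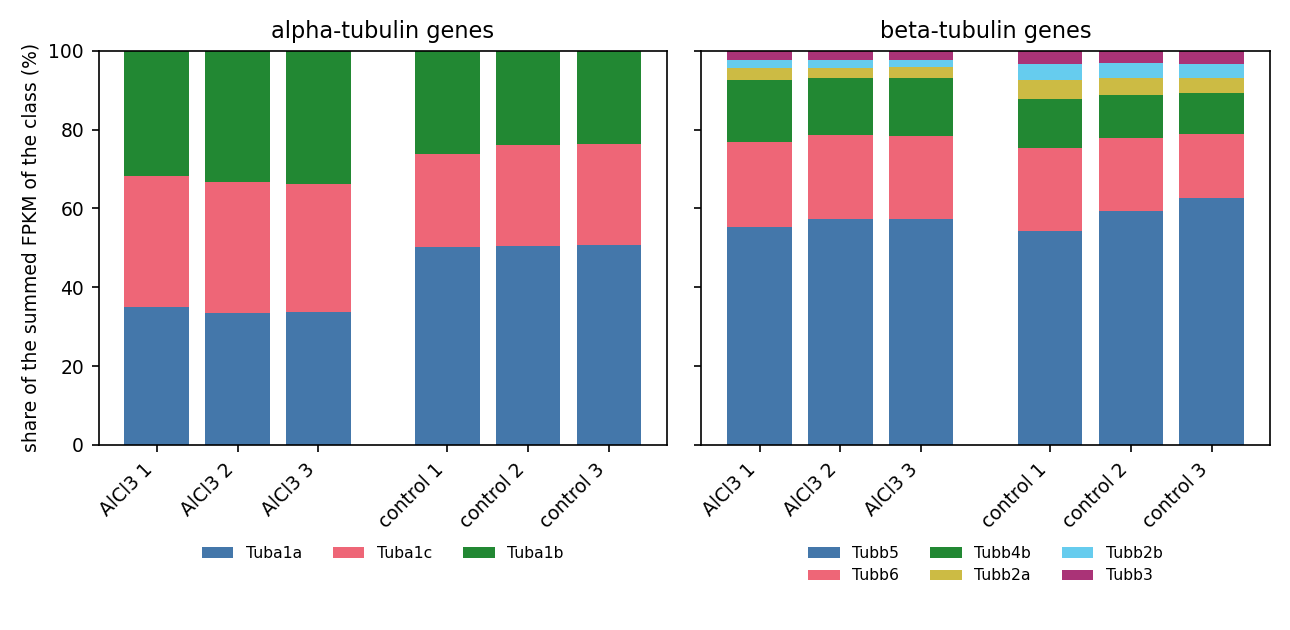
Share of each isotype in the summed FPKM of the alpha-tubulin members (left) and of the beta-tubulin members (right), as stacked bars that add to 100% in each library. The Tuba1a segment averages 34.1% in the AlCl3 libraries and 50.4% in the control libraries, while the Tubb5 segment covers between 54.2% and 62.7% in every library.

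Of the other tubulin genes, 8 had a row in the table and 4 passed the filter. Tuba4a, an alpha-tubulin isotype known from muscle, platelets and neurons, rose to 14.0 ± 1.10 FPKM in AlCl3 libraries, against 7.05 ± 1.06 FPKM in control libraries, with a log2 difference of 0.91 (SE 0.13, limma adjusted p = 2.81e-04). Its gene overlaps Stk16 on the opposite strand over 1379 bases, and as the strand setting of the counting is not given, reads of the 2 genes cannot be told apart there. Tubd1, which encodes delta-tubulin of the centriole, was at 3.68 ± 0.376 FPKM in AlCl3 libraries and 2.38 ± 0.225 FPKM in control libraries, with a log2 difference of 0.47 (SE 0.12, limma adjusted p = 0.00829). That call was lost without AlCl3 1 (limma adjusted p = 0.0510) and with the GC and length trend removed (limma adjusted p = 0.0905). Tube1, which encodes epsilon-tubulin, was at 1.40 ± 0.212 FPKM in AlCl3 libraries and 1.34 ± 0.104 FPKM in control libraries and did not pass the test (log2 difference 0.03, limma adjusted p = 0.854). Below the filter, Tubb4a, a beta-tubulin of oligodendrocytes and neurons, had 3, 1 and 6 reads in AlCl3 libraries, against 46, 42 and 55 reads in control libraries, and Tuba8 had 0, 1 and 3 reads in AlCl3 libraries, against 5, 6 and 8 reads in control libraries. Both genes were outside the main test, and when all genes of the table were tested, 3 of the 8 other tubulin genes were lower.

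Genes that nucleate microtubules mostly rose while gamma-tubulin itself was lower. Of 20 genes tested in the list of the gamma-tubulin ring complex and nucleation factors, 15 rose, 3 fell and 2 did not pass, with a median log2 difference of 0.66 beside 0.03 over all genes tested. In this list 75% were higher and 15% lower, beside 31.2% and 30.2% over all genes tested. Haus8, a subunit of augmin, the complex that branches new microtubules from existing ones, was at 10.9 ± 0.591 FPKM in AlCl3 libraries and 2.52 ± 0.542 FPKM in control libraries (log2 difference 1.77, limma adjusted p = 9.32e-06). The augmin subunits Haus2 and Haus7 also rose, by log2 differences of 1.32 and 1.07. Those of Haus1, Haus3 and Haus6, which rose as well, were 0.60, 0.88 and 0.63. Haus4 was the only augmin subunit tested that fell. It was at 14.0 ± 2.00 FPKM in AlCl3 libraries, against 20.3 ± 1.57 FPKM in control libraries (log2 difference -0.51, limma adjusted p = 0.00760). Mzt2, a small protein of the ring complex, fell to 13.6 ± 0.769 FPKM in AlCl3 libraries, against 32.1 ± 1.10 FPKM in control libraries (log2 difference -1.18, limma adjusted p = 1.91e-05). Mzt1, another small protein of the complex, did not pass, at 34.4 ± 2.12 FPKM in AlCl3 libraries and 37.0 ± 2.07 FPKM in control libraries (log2 difference -0.10, limma adjusted p = 0.437). Haus1, Haus3, Haus4, Haus6, Mzt1 and the Tubgcp genes were picked after their values were seen. The Tubgcp genes encode the core subunits of the ring. All 5 Tubgcp genes rose: the log2 difference was 0.60 for Tubgcp2, 1.09 for Tubgcp3, 0.66 for Tubgcp4, 1.09 for Tubgcp5 and 0.38 for Tubgcp6. For Tubgcp5, a gene of low level, it ranged from 0.46 with a pseudocount of 5 FPKM to 1.72 with voom on recovered reads. Tubgcp5 passed the filter through its AlCl3 libraries, as it averaged 0.964 FPKM in control libraries. The Tubgcp6 call, at a limma adjusted p of 0.0323, was lost in 6 of 16 alternatives, with limma adjusted p-values of 0.0548 to 0.0760: with no filter, without any one of the AlCl3 libraries, without control 1 and without control 2.

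**Figure D4:**
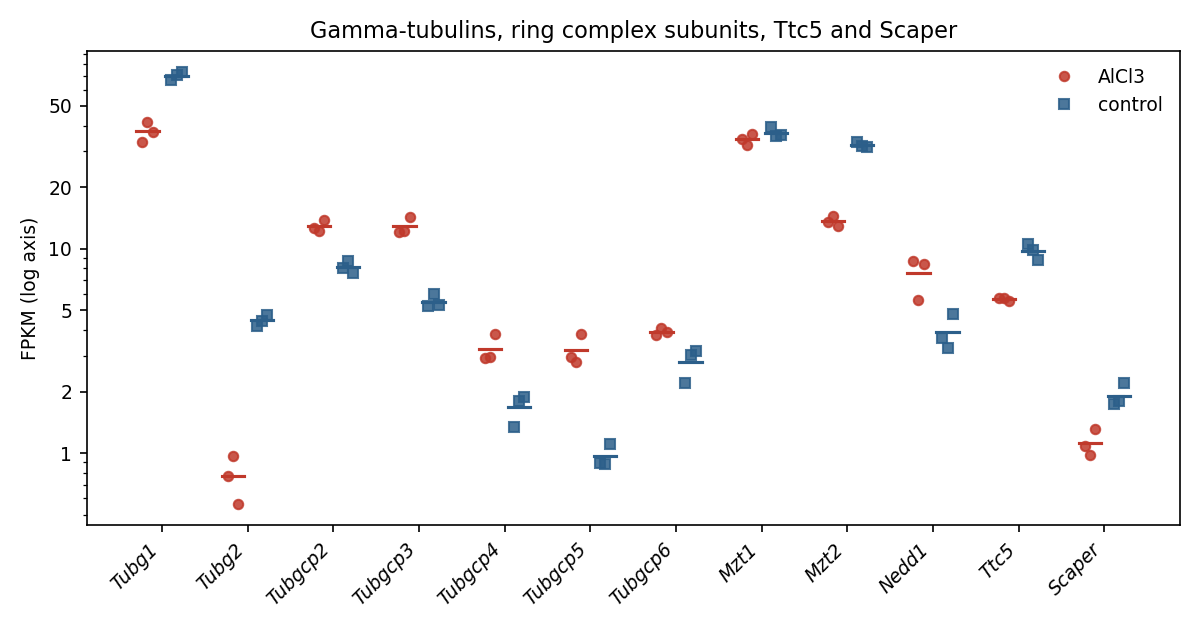
FPKM of Tubg1, Tubg2, ring complex genes, Ttc5 and Scaper in each library on a log axis, with AlCl3 libraries as red circles, control libraries as blue squares and bars at the group means. Tubg1, Tubg2, Mzt2, Ttc5 and Scaper have all AlCl3 libraries below the control libraries, the Tubgcp genes and Nedd1 have them above, and the groups overlap for Mzt1.

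Among the genes that act on tubulin mRNA, Ttc5 and Scaper fell, while 7 of the 10 CCR4-NOT subunits rose. Ttc5, the factor that reads the nascent tubulin chain, was at 5.71, 5.72 and 5.52 FPKM in AlCl3 libraries, against 10.6, 9.91 and 8.77 FPKM in control libraries. The AlCl3 libraries were nearly level with each other and all lower than the control libraries, with a log2 difference of -0.69 (SE 0.11, limma adjusted p = 6.68e-04). Scaper, the adaptor downstream of Ttc5, was picked after its values were seen. It was at 1.12 ± 0.169 FPKM in AlCl3 libraries and 1.91 ± 0.263 FPKM in control libraries, with a log2 difference of -0.45 (limma adjusted p = 0.0126), and its call was lost when values were rescaled to TPM (limma adjusted p = 0.0711). Its log2 difference ranged from -0.17 with a pseudocount of 5 FPKM to -0.76 with voom on recovered reads. The other genes of the list are subunits of CCR4-NOT, which shortens poly(A) tails of many mRNAs. Cnot6, a deadenylase, was at 18.8 ± 3.77 FPKM in AlCl3 libraries and 8.08 ± 1.32 FPKM in control libraries (log2 difference 1.11, limma adjusted p = 3.91e-04). Cnot2 and Cnot8 rose by log2 differences of 0.89 and 0.73, and that of Cnot2 was 0.53 with the GC and length trend removed. Of the 12 genes of the list, 7 rose, 2 fell and 3 did not pass, with a median log2 difference of 0.54. The shares were 58.3% higher and 16.7% lower, beside 31.2% and 30.2% over all genes tested.

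Enzymes that modify tubulin after translation moved in both directions, with a writer and an eraser of alpha-tubulin acetylation both lower. Of 11 tested, 6 fell, 3 rose and 2 did not pass, with a median log2 difference of -0.43. That was 54.5% lower and 27.3% higher, beside 30.2% and 31.2% over all genes tested. Atat1, the acetyltransferase of alpha-tubulin, was at 1.22 ± 0.155 FPKM in AlCl3 libraries and 4.69 ± 0.370 FPKM in control libraries (log2 difference -1.36, limma adjusted p = 1.80e-05). Sirt2, a deacetylase that can remove the same mark, was at 9.32 ± 1.00 FPKM in AlCl3 libraries and 18.3 ± 2.098 FPKM in control libraries (log2 difference -0.90, limma adjusted p = 2.79e-04). Hdac6, another deacetylase of alpha-tubulin, was named after its values were seen and did not pass the test. It was at 6.81 ± 0.600 FPKM in AlCl3 libraries and 8.58 ± 1.47 FPKM in control libraries (log2 difference -0.28, limma adjusted p = 0.112). Ttll1, which adds glutamate chains, and Agbl5, which removes the branch-point glutamate, fell, with log2 differences of -0.96 and -0.83. The Ttll genes went both ways. The 3 genes of the list that rose were Ttll4, Ttll7 and Vash2, named after their values were seen. Their log2 differences were 0.55, 0.69 and 0.58.

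Among stathmins and severing enzymes, 4 of 8 genes tested rose, 1 fell and 3 did not pass, with a median log2 difference of 0.39. The share called, 62.5%, was close to the 61.3% over all genes tested. Stmn1, which binds free tubulin dimers, was at 44.6 ± 2.32 FPKM in AlCl3 libraries and 19.3 ± 0.862 FPKM in control libraries (log2 difference 1.17, limma adjusted p = 2.18e-05). Fignl1, related to severing enzymes by sequence but best known for its part in homologous recombination, was at 16.6 ± 0.790 FPKM in AlCl3 libraries and 2.83 ± 0.400 FPKM in control libraries (log2 difference 2.21, limma adjusted p = 2.40e-06). Katnal1, a katanin known in mice for its need in Sertoli cells during spermiogenesis, was at 1.51 ± 0.165 FPKM in AlCl3 libraries and 4.10 ± 0.367 FPKM in control libraries (log2 difference -1.02, limma adjusted p = 9.04e-05). Katnbl1, a regulator of katanin, rose by a log2 difference of 0.71, which was 0.33 with the GC and length trend removed.

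Microtubule-associated proteins and plus-end factors moved in both directions, with 6 of 22 genes tested higher, 3 lower and 13 not called, and a median log2 difference of 0.04. The list was called less often than all genes tested, with 27.3% higher and 13.6% lower against 31.2% and 30.2%. Without control 1 the number lower was 7, and with the GC and length trend removed the number higher was 10. Of the end-binding proteins, which track growing plus ends, Mapre1 and Mapre3 went opposite ways. Mapre2, named after its values were seen, did not pass (log2 difference -0.14, limma adjusted p = 0.361). Mapre1 (EB1) was at 34.8 ± 3.78 FPKM in AlCl3 libraries and 11.2 ± 1.06 FPKM in control libraries (log2 difference 1.56, limma adjusted p = 1.10e-05), and Mapre3 (EB3) was at 3.25 ± 0.568 FPKM in AlCl3 libraries and 20.7 ± 1.54 FPKM in control libraries (log2 difference -2.36, limma adjusted p = 2.50e-06). The spindle protein Tacc3 rose by a log2 difference of 1.18, and Map6, which protects microtubules from cold, fell by 0.83 on the log2 scale, or by 0.54 with the GC and length trend removed. Among kinesins and cytoplasmic dynein genes, 16 of 48 were higher, 14 lower and 18 not called, with a median log2 difference of 0.09. These shares, 33.3% higher and 29.2% lower, were close to the 31.2% and 30.2% over all genes tested. Kif2c, a kinesin that removes tubulin from microtubule ends, was at 24.1 ± 2.61 FPKM in AlCl3 libraries and 5.42 ± 0.599 FPKM in control libraries (log2 difference 1.97, limma adjusted p = 4.24e-06). Klc4, Kif21b and Kifc2 fell, with log2 differences of -1.81, -1.76 and -1.96, and Kifc2 was left at 0.201 ± 0.0693 FPKM in AlCl3 libraries, against 3.70 ± 0.747 FPKM in control libraries. The size of the Kifc2 difference depended on the scale, from -0.74 with a pseudocount of 5 FPKM to -4.21 with voom on recovered reads. Kifc2 was under 1 FPKM in every AlCl3 library and passed the filter only through its control libraries.

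Listed genes of the other filament systems were also higher where they passed the test. Acta2, a smooth muscle actin gene outside that list and named after its values were seen, was lower. It was at 183 ± 14.9 FPKM in AlCl3 libraries and 454 ± 14.0 FPKM in control libraries (log2 difference -1.31, limma adjusted p = 3.74e-05). Of 7 actin and intermediate filament genes of the list tested, 5 rose, none fell and 2 did not pass, with a median log2 difference of 0.54. The share higher was 71.4%, beside 31.2% over all genes tested. Lmnb1 and Lmna, which encode nuclear lamins, rose by log2 differences of 1.21 and 1.14, and Nes, an intermediate filament gene of progenitor cells, by 0.76. Actb, cytoplasmic beta-actin, was at 1142 ± 92.4 FPKM in AlCl3 libraries and 784 ± 53.2 FPKM in control libraries (log2 difference 0.54, limma adjusted p = 0.0167). Without control 2 the number higher was 3. The Actb call was lost with no filter on low values (limma adjusted p = 0.0618) and without control 2 (limma adjusted p = 0.0513).

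**Figure D5:**
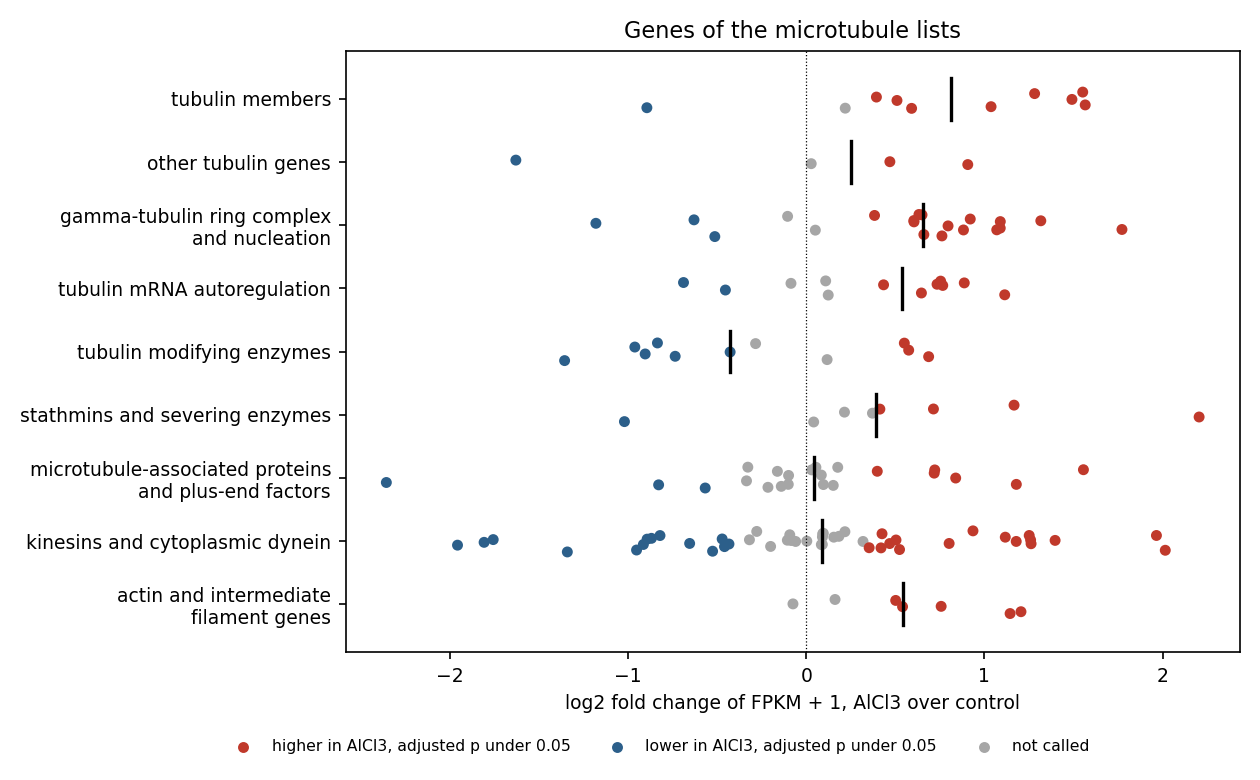
Log2 difference of FPKM + 1, AlCl3 minus control, for each tested gene of the microtubule lists, with 1 point per gene and a black bar at the median of each list. Red points were higher and blue points lower in AlCl3 at an adjusted p under 0.05, and grey points were not called. The bar stands at 0.81 for the tubulin members, at 0.66 for the nucleation list and at -0.43 for the modifying enzymes.

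The genes whose pattern was most like that of Tubb5 over the 6 libraries, by Pearson correlation of log2(FPKM + 1), were Fam83d (r = 0.998), Gm5182 (r = 0.998), Nup188 (r = 0.997), Chtf18 (r = 0.997) and Tonsl (r = 0.997). Among the members, Tubb3 came closest to Tubb5, with r = 0.986 and rank 62 of all genes tested, while Tubg1 had r = -0.84. These values describe 6 points in 2 groups and mostly carry the gap between the groups.

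Differences between libraries other than the treatment were also examined. All 10 members had their highest AlCl3 value in AlCl3 2, the library with the fewest reads, and 8 of 10 had their lowest control value in control 1. Without AlCl3 2, and without control 1, the counts of 8 members higher and 1 lower were the same. Of 25 Sertoli cell markers, which include Tubb3 and Vim, 19 had a row, and their summed level was 578 to 596 FPKM in AlCl3 libraries and 358 to 485 FPKM in control libraries. Most of that sum came from Vim and from Ctsl, a protease gene. Vim was at 341 ± 20.3 FPKM in AlCl3 libraries and 243 ± 44.0 FPKM in control libraries. Ctsl was at 156 ± 12.5 FPKM in AlCl3 libraries and 63.8 ± 2.44 FPKM in control libraries. Inhbb, named after its values were seen, went the other way. It was at 46.0 ± 2.58 FPKM in AlCl3 libraries and, above Ctsl, at 72.1 ± 13.1 FPKM in control libraries. Of 11 Sertoli cell markers tested, 5 (45.5%) were higher, 4 (36.4%) lower and 2 not called, beside 31.2% and 30.2% over all genes. Those with the smallest p were Ctsl and 3 that fell, the signalling ligand Dhh, the inhibin subunit Inha and the transcription factor Gata4. Dhh was at 0.160 ± 0.00635 FPKM in AlCl3 libraries and 1.90 ± 0.208 FPKM in control libraries (limma adjusted p = 1.91e-05). It was under 1 FPKM in every AlCl3 library and passed the filter only through its control libraries. Inha was at 1.56 ± 0.0756 FPKM in AlCl3 libraries and 4.54 ± 1.10 FPKM in control libraries (limma adjusted p = 2.23e-04). Gata4 was at 6.33 ± 0.435 FPKM in AlCl3 libraries and 11.6 ± 2.03 FPKM in control libraries. Among defining markers outside these, Wt1 was near 0, at 0.0163 ± 0.00387 FPKM in AlCl3 libraries and 0.146 ± 0.0479 FPKM in control libraries, and so was Amh, at 0.173 ± 0.0323 FPKM in AlCl3 libraries and 0.0470 ± 0.0407 FPKM in control libraries. Sox9 was at 1.61 ± 0.0994 FPKM in AlCl3 libraries and 1.01 ± 0.0895 FPKM in control libraries. Of 18 neuron and retina markers, 10 had a row and 9 of these averaged under 1 FPKM, and the summed level, mostly Rbpms, was 14.7 to 16.2 FPKM in AlCl3 libraries and 19.9 to 25.4 FPKM in control libraries. All 7 myoid and smooth muscle markers had a row and summed to 290 to 329 FPKM in AlCl3 libraries and 693 to 721 FPKM in control libraries, mostly Acta2. Of 13 macrophage and leukocyte markers, 8 had a row and summed to 31.2 to 33.6 FPKM in AlCl3 libraries and 8.19 to 10.1 FPKM in control libraries, mostly Cd14. Of 12 Leydig cell markers, 7 had a row and summed to 18.7 to 25.3 FPKM in AlCl3 libraries and 20.8 to 25.4 FPKM in control libraries, and the 2 germ cell markers with a row summed to under 0.1 FPKM in each library. The part of these marker levels in the tubulin differences was not tested.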

How the data were processed

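The deposited table holds FPKM values made by the authors, 1 column per library, as its name and values show. The submitters' processing notes name HISAT2 2.1.0 and the GRCm38 build. No counter, annotation, strand setting or filter of the authors is stated in the labels. Columns were mapped to samples by their labels. Of 24354 identifiers, 24300 were found in GENCODE M21 (GRCm38) and 54 were not. With its exon lengths, 98.6% of genes came out as whole reads in every library within 0.01 reads. These recovered reads served for depth, for read numbers and for a voom alternative. A floor of 3 reads in a gene of 1 kb was worth 0.170 to 0.221 FPKM, and covers counting error only.

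The test was the two-sided moderated test of limma 3.58.1 (R 4.3.3), run with a variance trend and no covariate on log2(FPKM + 1), for genes that averaged 1 FPKM or more. Fold changes on this scale understate those of low genes. The limma step was also run on simulated data with independent libraries and few changed genes. That run gives no error rate for these data, where most genes were called and the independence of replicates is unknown. Alternatives were other pseudocounts, filters, scalings and variance models, removal of GC and length trends, a replicate block, and leaving out each library. Shares were recomputed with pseudogenes added and from reads not divided by length.

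The members and gene lists were chosen with earlier results of these data known. Named genes were the members, other tubulin genes above the filter, up to 4 genes with the smallest p of each microtubule, filament and Sertoli cell list, the 5 genes most like the most abundant member, and up to 5 tubulin pseudogenes by reads. Lists of other cell types are given by summed level and leading gene. Wt1, Amh, Sox9, Vim and Inhbb were named besides as defining or most abundant Sertoli cell markers. Promoter sequences are from RefSeq (GRCm38.p6) and coding starts from GENCODE M21.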

Additional observations from a re-analysis of the deposited data

How the results depend on the processing

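Under all 17 alternatives to the main setting, 8 members were higher and 1 was lower in AlCl3, and each member kept its direction and its side of the threshold. The highest adjusted p among the called members was 0.0475 (Tubb2a), and the log2 difference of Tubb2b ranged from 0.12 to 0.35. Over all genes, 2416 to 3860 were higher and 2260 to 3865 lower. Rescaling to TPM put the median log2 difference of all genes at 0.14, against 0.03 in the main setting.

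Whether shared replicate numbers pair the libraries is unclear. Deviations from the group means correlated at 0.202, 0.0968 and 0.385 for the same number, and at -0.363 to 0.168 for different numbers. AlCl3 2 correlated best with control 1 (0.168), which has another number. With the replicate block, 3778 genes were higher and 3597 lower, against 3490 and 3379 without it, and the member counts were 8 and 1.

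Tube1, never called, reversed to -0.28 with the GC and length trend removed, and ranged from -0.035 (without AlCl3 3) to 0.094 when 1 library was left out. Some list counts changed. With no filter, other tubulin genes had 3 lower, stathmins and severing enzymes 2 lower and actin and intermediate filament genes 1 lower. With a mean FPKM of at least 5, where fewer genes were tested, other tubulin genes had 1 higher and 0 lower, the nucleation list 7 higher, autoregulation 1 lower, modifying enzymes 1 higher and stathmins 0 lower. With TPM, with or without tubulins in the sum, autoregulation had 1 lower. With the GC and length trend removed, other tubulin genes had 1 higher and microtubule-associated proteins 10 higher. Leaving out 1 library gave 1 to 2 other tubulin genes higher (1 without AlCl3 1), 3 to 7 microtubule-associated proteins lower (7 without control 1) and 3 to 5 actin and intermediate filament genes higher (3 without control 2). The cause was not tested.

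With a pseudocount of 5 FPKM, which by construction shrinks differences of low genes, the log2 difference was 1.09 for Haus8, 0.70 for Haus2, -0.64 for Atat1, -0.40 for Agbl5, 1.46 for Fignl1, -0.48 for Katnal1, 0.45 for Katnbl1, 0.30 for Tubgcp4, 0.20 for Tubgcp6 and 0.23 for Tubd1, and all of these calls held.

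With pseudogenes added, the AlCl3 shares became 34.99% for Tuba1a and 31.1% for Tuba1c. From reads not divided by length, the shares in AlCl3 libraries were 30.9% for Tuba1a, 31.1% for Tuba1b, 38.0% for Tuba1c, 1.51% for Tubb2a, 1.70% for Tubb2b, 1.47% for Tubb3, 11.0% for Tubb4b, 66.2% for Tubb5 and 18.2% for Tubb6. The shares in control libraries were 46.8% for Tuba1a, 29.4% for Tuba1c, 2.43% for Tubb2a, 3.07% for Tubb2b, 2.15% for Tubb3, 8.23% for Tubb4b, 68.3% for Tubb5 and 15.8% for Tubb6. By construction these weigh longer genes more. Depth limits Tubg2, Tubb4a and Tuba8, which had at most 24 reads in an AlCl3 library.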
